A study of Mus musculus with 6 samples.

Results

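Naive CD4 T cells of the liver were defined here by transcripts and receptor sequences read from the same cell barcode. A barcode counted as a member when its T cell receptor (TCR) library held an α and a β chain, none of its α chains joined TRAV11 or TRAV11D to TRAJ18 (the chain of invariant natural killer T, or iNKT, cells), and its RNA held at least 1 Cd4 molecule and at least 1 molecule of Lef1 or Ccr7. Members also had no molecule of Cd8a, Cd8b1, Foxp3, Ccl5, Cxcr6, Zbtb16, Zfp683 or Cd79a, which mark CD8, regulatory, effector, innate-like and B cells. RNA was counted as unique molecular identifiers (UMIs), each standing for 1 captured transcript. The rule found 785 members among 23860 barcodes. Since measured levels of these genes chose the members, those levels describe the population and are evidence for nothing else.

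The mice were wild type (WT) or Ja18-/-, called iNKT KO in the labels because iNKT cells need the Jα18 segment that the allele removes. All mice ate a 60% high-fat diet (HFD) for 12 weeks, and the 2 groups named HFD+HDCA received 0.25% hyodeoxycholic acid (HDCA), a bile acid, in that diet. The 3 groups were WT HFD, then WT HFD+HDCA, then iNKT KO HFD+HDCA, the order in which sets of 3 values are given. Each had 1 RNA library and 1 TCR library from liver mononuclear cells, and the sources used here give neither the number nor the age of the mice behind a library. The design names a CD45+ sort and the treatment text CD4+ lymphocytes, whereas barcodes with B cell RNA (no TCR contig, Cd79a and Ms4a1) numbered 2111, 3454 and 2728 in that order of groups. With 1 library per group no test of a difference was possible. Ratios below compare WT HFD+HDCA with WT HFD, and iNKT KO HFD+HDCA with WT HFD+HDCA, with exact 95% intervals that cover counting error only, and both comparisons share the WT HFD+HDCA library.

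A naive CD4 T cell has left the thymus and has not yet met its antigen. It circulates between blood and lymph nodes, held in a resting state by transcription factors such as TCF-1 (Tcf7) and LEF1 and by interleukin 7, and enters nodes with the help of CCR7. On activation it divides, loses this program and gains adhesion molecules, chemokine receptors and cytokines. Its receptor joins 1 of many Jα segments to a Vα segment, so a naive population holds a wide range of receptors, nearly all of them seen once.

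Members numbered 313, 259 and 213 in the 3 groups. Their median depth was 6222, 5706 and 5911 UMIs, and their UMIs summed to 2061338, 1650747 and 1327970. Mitochondrial transcripts made up a median of 1.55%, 1.44% and 1.67% of a member's UMIs, with no member above 5.48%. Whole libraries held 6479, 10228 and 7153 barcodes (the labels state 10000 sorted cells each) at medians of 5734, 5631 and 5200 UMIs, 67 to 93 barcodes occurred in each pair of libraries, and no member barcode was among them. The median member carried 12, 11 and 11 UMIs of Lef1 and Ccr7 together, and 11, 15 and 7 members passed on 1 such UMI. Just outside the rule, 11, 19 and 13 barcodes failed only for want of Lef1 and Ccr7, 110, 94 and 75 only for want of Cd4, and 61, 61 and 30 only because of Ccl5.

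Of the 4 defining markers, Lef1, Tcf7 and Cd4 were found throughout the population and Igfbp4 in most of it. Levels are counts per 1000000 UMIs of the members (CPM). Lef1, a transcription factor of naive T cells, stood at 1028, 969 and 967 CPM. Tcf7, its partner factor, which the rule did not use, stood at 869, 923 and 877 CPM and was detected in 96.8%, 97.3% and 96.7% of members. Igfbp4, a secreted insulin-like growth factor binding protein that marks naive T cells in mice and was also not used by the rule, stood at 845, 897 and 947 CPM, but was detected in only 72.2%, 63.7% and 70.9% of members. In B-like barcodes, those with B cell RNA named above, which should lack it, Igfbp4 was detected in 0.569%, 0.637% and 0.293% of barcodes at median depths of 4564, 4502 and 4329 UMIs, so its detection in members was not at the level of free RNA. CD4 cells with the same receptor criteria but without Lef1 and Ccr7 (64, 104 and 74 barcodes, called Lef1/Ccr7-negative CD4 below, and not filtered on Ccl5, Cxcr6, Zbtb16 or Zfp683) had 0 Igfbp4 UMIs in all 3 libraries, at 446647, 606368 and 438422 UMIs in all.

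**Figure D1:**
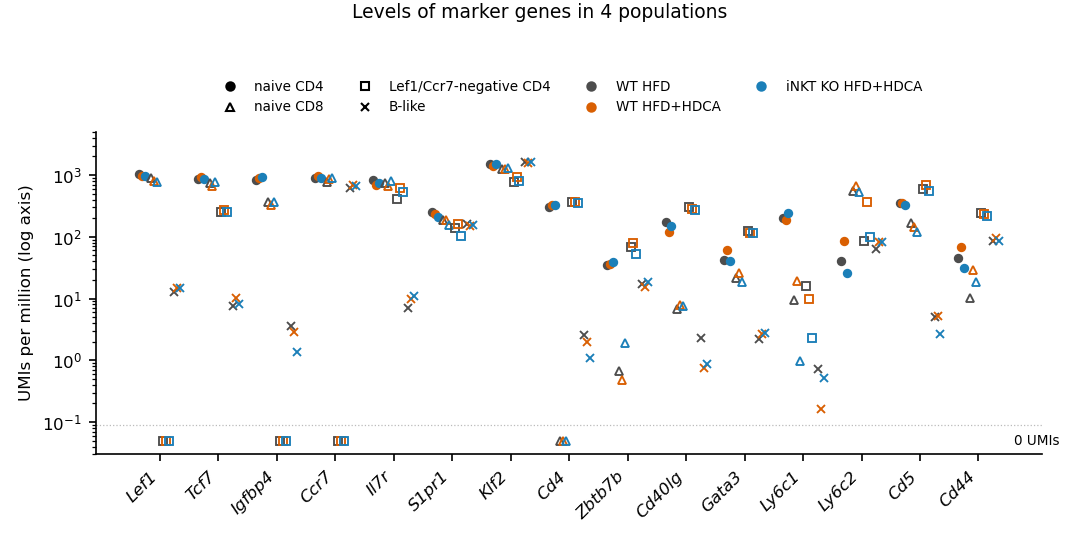
Levels of 15 marker genes in naive CD4 (filled circles), naive CD8 (triangles), Lef1/Ccr7-negative CD4 (squares) and B-like barcodes (crosses), in CPM on a log axis, with 1 symbol per library and its colour giving the group; symbols below the dotted line had 0 UMIs. Lef1, Ccr7, Cd4 and the CD8 genes entered the rules, whereas Igfbp4 and Tcf7 did not.

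The genes that keep naive cells in circulation were at like levels in the 3 libraries. S1pr1, which lets T cells leave tissue, stood at 250, 234 and 206 CPM, and Klf2, which drives S1pr1, at 1482, 1419 and 1489 CPM. Il7r, the interleukin 7 receptor, stood at 817, 693 and 745 CPM, which gave a ratio of 0.848 (0.786 to 0.914) with HDCA and 1.08 (0.986 to 1.17) in the knockout. Of 20 genes on a list of naive and quiescence genes, 10 were higher and 10 lower with HDCA, none by 1.5-fold, and the median log2 ratio was 0.0049. In the knockout 13 of the 20 were higher, with a median of 0.08, which was 0.0047 among members with an Igfbp4 UMI and -0.0043 without the deep and mixed members, both defined below.

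RNA of other cell types was concentrated in few members. Genes of an 18-gene B cell list summed to 766, 1090 and 379 CPM, and 5 members held 59.2%, 72.6% and 9.94% of those UMIs. An 18-gene myeloid list summed to 765, 3334 and 486 CPM, and 5 members of WT HFD+HDCA held 91.0% of it there, against 65.3% in WT HFD and 47.0% in the knockout. Hepatocyte genes summed to 13.1, 26.1 and 3.01 CPM, and 12, 14 and 15 of 17 such genes had no UMI. Members above 15000 UMIs numbered 2, 8 and 2, and 12, 11 and 12 members carried 2 β chains. For this reason each result below that leads with a gene list with a median beyond 0.1 is also given without the members above 15000 UMIs or with at least 10 UMIs of the B cell and myeloid lists, called the deep and mixed members, which leaves 306, 242 and 203.

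Naive CD4 T cells made up a smaller share of the WT HFD+HDCA library than of the WT HFD library, and naive CD8 T cells, chosen by the same rule with the coreceptors exchanged, did so less. The members were 4.83% of barcodes in WT HFD (4.32% to 5.38%, exact Clopper-Pearson interval), 2.53% in WT HFD+HDCA (2.24% to 2.86%) and 2.98% in iNKT KO HFD+HDCA (2.60% to 3.40%). The ratio with HDCA was 0.524 (0.443 to 0.620), and that of the knockout under HDCA 1.18 (0.976 to 1.42), an interval that includes 1. Naive CD8 T cells were 2.90%, 2.55% and 3.68% of barcodes, with ratios of 0.879 (0.726 to 1.07) and 1.44 (1.21 to 1.72). Per naive CD8 T cell there were thus 1.67 naive CD4 T cells (1.39 to 2.01) in WT HFD, 0.992 (0.832 to 1.18) in WT HFD+HDCA and 0.810 (0.673 to 0.974) in the knockout.

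The lower share with HDCA was also seen over narrower denominators. Among barcodes with both receptor chains and no invariant chain, members were 16.0%, 9.10% and 10.8%, with a ratio of 0.568 (0.480 to 0.672) with HDCA and 1.19 (0.986 to 1.43) in the knockout. Among CD4 barcodes of that kind without Cd8a, Cd8b1 or Foxp3, which numbered 575, 575 and 408, members were 54.4%, 45.04% and 52.2%. Here the ratio was 0.828 (0.699 to 0.979) with HDCA and 1.16 (0.962 to 1.40) in the knockout. The Lef1/Ccr7-negative CD4 cells were 0.988%, 1.02% and 1.03% of all barcodes, but 11.1%, 18.1% and 18.1% of these CD4 barcodes, a ratio of 1.63 (1.18 to 2.26) with HDCA and 1.003 (0.734 to 1.36) in the knockout. Shares of a sorted suspension show how the cells of 1 sort divide, not how many cells a liver held, and whether another tube of the same group would give the same share is unknown.

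**Figure D2:**
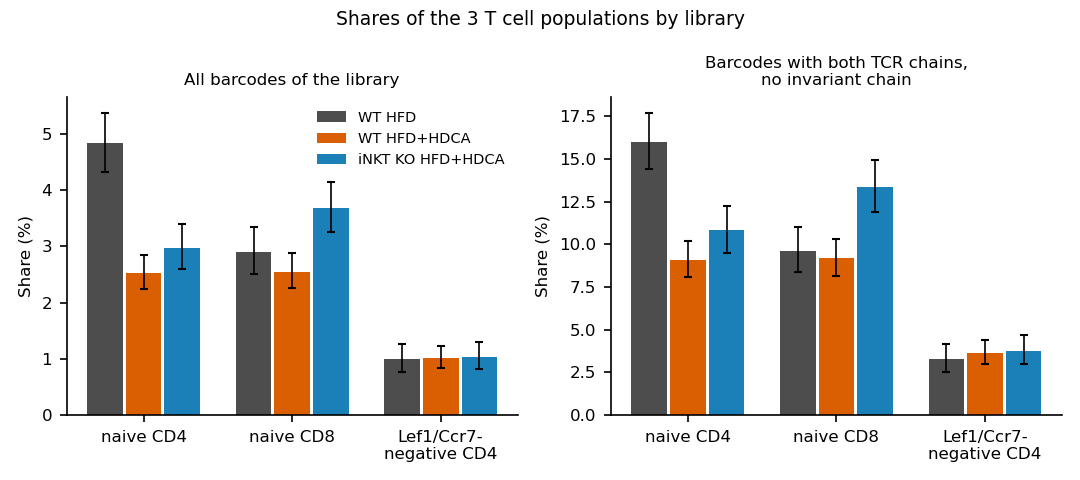
Shares of naive CD4, naive CD8 and Lef1/Ccr7-negative CD4 barcodes in each library, as a percentage of all barcodes (left) and of barcodes with both TCR chains and no invariant chain (right). Bars are single libraries and error lines are exact 95% Clopper-Pearson intervals, which cover counting error only; the naive CD4 bar of WT HFD (4.83% and 16.0%) stands above the other two.

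The members were not uniform, and the 27.8% (22.9% to 33.1%) in WT HFD, 36.3% (30.4% to 42.5%) in WT HFD+HDCA and 29.1% (23.1% to 35.7%) in the knockout without an Igfbp4 UMI had higher levels of several transcripts of activated T cells. This division into members with (226, 165 and 151) and without Igfbp4 (87, 94 and 62) was chosen after values were seen, from 3 that were looked at, and gets no test. Depth differed between them, with medians of 6515, 6118 and 6143 UMIs with Igfbp4 and 5232, 5028 and 5314 without. When every member was thinned to 2000 UMIs, 40.6%, 45.2% and 44.8% lacked Igfbp4, so the share without it depends on depth.

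Itgb1, the integrin β1 chain that T cells gain with antigen experience, was higher without Igfbp4 in each library. It stood at 528, 737 and 372 CPM in members without Igfbp4 and at 19.9, 23.3 and 22.5 CPM in those with it, ratios of 26.6 (18.3 to 40.0), 31.7 (21.2 to 49.53) and 16.6 (10.5 to 27.3). The cytoskeletal and calcium-binding genes S100a4, S100a6, Ahnak and Anxa2 had ratios between 5.43 (Anxa2, WT HFD+HDCA) and 17.5 (S100a4, iNKT KO HFD+HDCA). Ctla4, the inhibitory receptor of activated and regulatory T cells, had ratios of 8.49, 7.68 and 9.28. Cxcr3, a chemokine receptor of T cells that enter inflamed tissue, was detected in 27.6%, 34.0% and 29.0% of members without Igfbp4 and in 0.442%, 0.606% and 0% of those with it. Ikzf2 (Helios), a factor of regulatory and activated T cells, was detected in 19.5%, 27.7% and 16.1% against 0%, 1.21% and 0.662%. Pdcd1, the PD-1 receptor, was detected in 11.5%, 18.1% and 14.5% against 0.442%, 1.21% and 1.32%.

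The naive genes differed less between these members. Tcf7 was at 880, 951 and 896 CPM without Igfbp4 and 866, 908 and 870 with it, ratios of 1.02, 1.05 and 1.03 whose intervals include 1. Lef1 had ratios of 0.676, 0.555 and 0.680. Lef1 and Cd4 entered the rule, so their levels do not bear on the name of the population. Tcf7 did not enter it, but its level did not separate the 2 kinds of member. Lef1/Ccr7-negative CD4 cells also held Tcf7, with 112, 162 and 110 UMIs of 446647, 606368 and 438422. The rule also admits CD4 cells with the transcripts of antigen-experienced cells above. Most genes stood slightly higher without Igfbp4, with a median log2 ratio over all measured genes of a library of 0.19, 0.21 and 0.10. Of 3758 genes with enough UMIs in all 3 libraries, 118 (3.14%) were at least 1.5-fold higher without Igfbp4 in each. At least 1.5-fold lower in each were 13 (0.346%). Those lower included Treml2, Slc49a4, Klhdc2, Pdlim4, Klhdc1, Rras2, Kif1b and Tgfbr3, and Treml2, a receptor of the TREM family, had ratios of 0.356, 0.402 and 0.20.

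**Figure D3:**
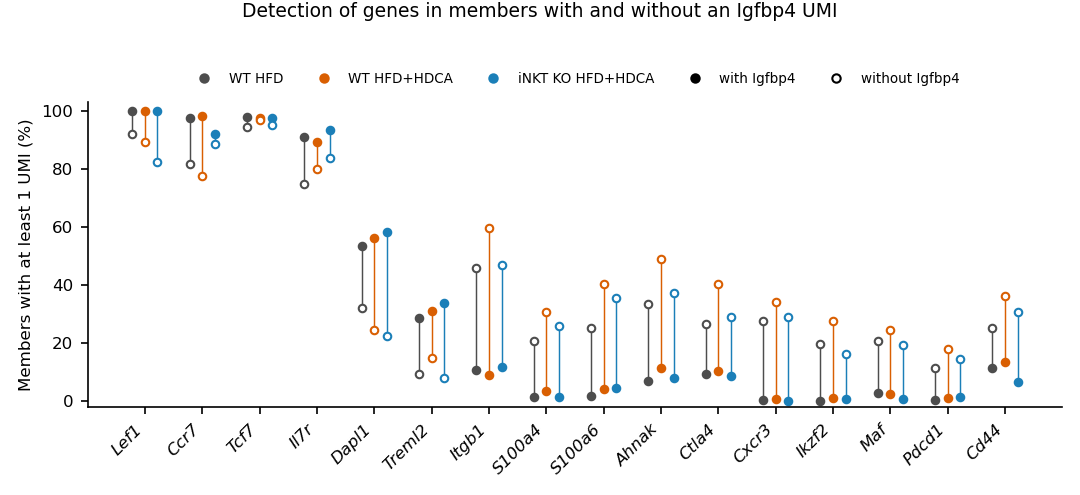
Percentage of members with at least 1 UMI of 16 genes, for members with an Igfbp4 UMI (filled) and without (open), 1 line per library. Lef1, Ccr7, Tcf7 and Il7r stay high in both, while Itgb1, S100a4, S100a6, Ahnak, Ctla4, Cxcr3, Ikzf2, Maf, Pdcd1 and Cd44 were found more often in the members without Igfbp4 of each library.

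Both kinds of member took smaller shares of the library with HDCA. Members with Igfbp4 were 3.49%, 1.61% and 2.11% of barcodes, a ratio of 0.463 (0.376 to 0.568) with HDCA and of 1.31 (1.04 to 1.64) in the knockout. Members without it were 1.34%, 0.919% and 0.867%, a ratio of 0.684 (0.506 to 0.927) with HDCA and of 0.943 (0.673 to 1.31) in the knockout.

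Variation from cell to cell included several of the same genes. After thinning to 2000 UMIs, the ratio of variance to mean over members, which is near 1 for counting alone, had a median of 0.947 over 4421 genes. Genes were ranked by the lowest of their 3 ratios. Cdk8, a kinase of the Mediator complex, came first with 20.2, 17.2 and 29.1, followed by Cmss1 with 10.9, 5.37 and 13.7. Both were detected in 99.5% or more of the members of each library. Cdk8 had means of 24.7, 19.6 and 29.8 of the 2000 UMIs, above Malat1 with 13.9, 12.5 and 12.3. Cmss1 had 10.9, 7.91 and 11.1. Whether reads counted for Cdk8 and Cmss1 stem from their mRNA was not tested. S100a6, detected in 8.31%, 17.4% and 13.6% of members, had ratios of 4.17, 8.52 and 5.07, and S100a4, Crip1, Itgb1 and S100a11 were also among the 15 most variable. Igfbp4 itself had 2.99, 4.54 and 3.50. Others were Malat1, Lars2 and Il31ra, and the cytoskeletal genes Actb, Actg1 and Tmsb10.

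The members were then set against naive CD8 T cells of the same library. Of 6521 genes measured, 144 (2.21%) were at least 1.5-fold higher in the members in each library and 105 (1.61%) at least 1.5-fold lower. Zbtb7b (ThPOK), the factor that commits thymocytes to the CD4 lineage, stood at 34.9, 35.7 and 39.2 CPM in the members and at 0.677, 0.486 and 1.91 CPM in naive CD8 cells. Cd40lg, the ligand through which helper T cells reach B cells and macrophages, stood at 172, 118 and 149 CPM against 6.77, 7.78 and 7.65. Ly6c1 and Ly6c2, a pair of near-identical surface proteins whose reads are hard to tell apart, went in opposite directions. Ly6c1 stood at 201, 187 and 239 CPM in the members and 9.48, 19.0 and 0.956 in naive CD8 cells. Ly6c2 stood at 40.8, 84.2 and 25.6 CPM against 561, 652 and 531. Its level in WT HFD+HDCA members depended on the deep and mixed members. The ratio with HDCA was 2.07 over all members, and its log2 was -0.73 without them. St8sia6, Ecm1, Igsf23, Pdlim4, Tmem64, Ly6a and S100a4 were also among the 10 most raised. S100a4 was detected in only 6.71%, 13.5% and 8.45% of members. It stood at 274, 432 and 303 CPM in members without Igfbp4 and at 19.9, 67.0 and 17.4 in those with it. Naive CD8 cells had 2.03, 6.32 and 8.61 CPM.

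The genes lowest in the members against naive CD8 cells were led by Itgae, the αE integrin chain, with 0.485, 0.606 and 0.753 CPM against 43.3, 52.5 and 58.8. Ccr9, a gut homing receptor, stood at 1.46, 1.82 and 1.51 CPM against 54.9, 40.8 and 38.3. The cytotoxic granule genes Nkg7 and Ctsw and the genes Bend4, Adgrg5, Lcn4, Fam241a and Slc6a19 completed the list with Ly6c2. Cd5, whose level follows the strength of self-recognition in the thymus, stood at 347, 351 and 327 CPM in the members and at 165, 143 and 118 CPM in naive CD8 cells.

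Against Lef1/Ccr7-negative CD4 cells the difference was broader, with 231 of 4919 genes (4.7%) at least 1.5-fold higher in each library and 484 (9.84%) at least 1.5-fold lower. Besides Igfbp4, the most raised included Slc28a2b, a nucleoside transporter with 84.4, 66.6 and 83.6 CPM against 0 in all 3 libraries, Patj, Dapl1, Actn1, St8sia6, Atp1b1, Ly6c1 and Pdlim4. Dapl1, a gene of resting T cells, stood at 255, 258 and 272 CPM against 11.2, 8.25 and 2.28. The lowest were genes of effector cells. Ifng, the cytokine interferon γ, stood at 4.37, 11.5 and 1.51 CPM against 146, 246 and 194, and Tbx21 (T-bet), the factor that drives it, at 11.2, 13.9 and 6.78 against 204, 148 and 198. Gzma, Nkg7, Serpina3g, Lilrb4a, Cish, Asb2, Bhlhe40 and Podnl1 were the others. The rules of these populations differ in Lef1 and Ccr7 and in the absence of Ccl5, Cxcr6, Zbtb16 and Zfp683, so genes that go with those were bound to differ, and the values are a description.

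With HDCA in WT mice, naive CD4 T cells had more RNA of type I interferon genes and of genes of activated T cells, less of heat shock genes, and less Cd40lg. Of 7198 genes with at least 50 UMIs over both libraries, 343 (4.77%) were at least 1.5-fold higher and 190 (2.64%) at least 1.5-fold lower, and the interval of the ratio excluded 1 for 944 (13.1%). The median log2 ratio over all of these genes was 0.04, and 55.6% of them were higher. Bulk sums over members cannot tell more RNA per cell from more cells of one kind. Values among the members with Igfbp4 therefore stand beside the lists. Those members are not free of RNA of other cell types. With HDCA their median log2 ratio was 1.48 for the myeloid list and 2.14 for the B cell list. Over all members these medians were 0.70 and 0.65. In the knockout they were -1.79 and -4.15 with Igfbp4, and -1.99 and -3.57 over all members.

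Of 27 measured genes on a list of type I interferon genes, 21 were higher with HDCA and 6 of these by at least 1.5-fold, with a median log2 ratio of 0.25. Ifi27l2a, an interferon-induced protein of mitochondria, stood at 455, 652 and 460 CPM, a ratio of 1.43 (1.31 to 1.57) with HDCA. Isg15, a ubiquitin-like modifier, stood at 34.9, 62.4 and 45.9 CPM, a ratio of 1.79 (1.31 to 2.45), and Ly6a at 176, 272 and 163 CPM, a ratio of 1.55 (1.34 to 1.78). In each of these genes the WT HFD+HDCA library was the highest of the 3. Among members with Igfbp4 the list median was 0.46, and without the deep and mixed members it was 0.14. Ifi27l2a had a ratio of 0.996 (0.881 to 1.13) in members with Igfbp4 and 1.91 (1.66 to 2.21) in those without, and the difference between them was not tested. A list of interferon γ and guanylate-binding genes had 19 of 27 higher, 1 by 1.5-fold, and a median of 0.13, or 0.16 with Igfbp4 and 0.14 without the deep and mixed members.

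Heat shock genes, which encode chaperones, were lower with HDCA in 12 of 13 measured cases, 2 of them by at least 1.5-fold, with a median log2 ratio of -0.23. Dnajb1, a co-chaperone of HSP70, stood at 220, 145 and 233 CPM, a ratio of 0.657 (0.560 to 0.771). Hsp90aa1 stood at 353, 258 and 292 CPM, and Dnaja1 at 540, 388 and 482 CPM. Immediate early genes, which respond within minutes to stimulation or to tissue handling, were lower in 14 of 20, 1 by at least 1.5-fold. Their median was -0.18, with an interval, from the order of the genes, of -0.27 to 0.03 that includes 0. Jun stood at 454, 330 and 398 CPM, a ratio of 0.726 (0.652 to 0.808), and Junb at 2527, 2140 and 2337 CPM. Among members with Igfbp4 the medians were -0.18 for heat shock and -0.04 for immediate early genes, and without the deep and mixed members -0.17 and -0.15. The part of tissue handling in these values was not tested.

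Cd40lg was lower with HDCA, at 172, 118 and 149 CPM, a ratio of 0.686 (0.573 to 0.819). It was detected in 55.6%, 44.8% and 53.1% of members, against 0.474%, 0.318% and 0.257% of B-like barcodes. In members with Igfbp4 the ratio was 0.576 (0.458 to 0.720) and in those without it 0.971 (0.703 to 1.34), and the difference between them was not tested. In the knockout the ratio was 1.26 (1.03 to 1.55). On the list of costimulation and activation genes, which includes Cd40lg, 11 of 14 were higher with HDCA, with a median of 0.29. Icos, a costimulatory receptor, stood at 1.69 (1.33 to 2.15) times its WT HFD level, while Cd69, an early activation marker, stood at 0.799 (0.695 to 0.917). The median of this list was -0.0025 among members with Igfbp4 and 0.26 without the deep and mixed members.

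Genes of effector and regulatory T cells were higher with HDCA. Of 12 measured genes on a list of Th1 and cytotoxic genes 11 were higher, 9 of them by at least 1.5-fold, with a median log2 ratio of 0.82, which was 0.19 among members with Igfbp4 and 0.69 without the deep and mixed members. S100a6 stood at 112, 381 and 172 CPM, a ratio of 3.42 (2.93 to 3.99). Lgals1 (galectin-1) stood at 171, 378 and 227 CPM, and Itgb1 at 143, 273 and 115 CPM. The ratio of Itgb1 was 1.17 (0.664 to 2.05) in members with Igfbp4 and 1.40 (1.195 to 1.63) in those without. S100a6 had 4.48 (3.07 to 6.68) and 2.31 (1.96 to 2.75). With Igfbp4 this rested on few cells, as S100a6 was detected in 1.77% of such members in WT HFD (37 UMIs). In WT HFD+HDCA it was 4.24% (114 UMIs). The intervals treat UMIs as independent, whereas the variance to mean ratio of S100a6 over all members was 4.17 and 8.52, so they are too narrow. On the list of regulatory T cell genes 6 of 7 were higher, 5 by at least 1.5-fold, with a median of 0.82, or 0.575 among members with Igfbp4 and 0.66 without the deep and mixed members. Ctla4 stood at 57.7, 102 and 52.0 CPM and Ikzf2 at 38.8, 72.7 and 27.1 CPM. Itgb1, S100a6, Ctla4 and Ikzf2 are among the genes described above as higher in members without Igfbp4. Foxp3 was 0 in every member by the rule, which leaves in any regulatory T cell whose Foxp3 was not captured. Barcodes that failed the rule for Foxp3 alone numbered 11, 25 and 15 in libraries of 6479, 10228 and 7153 barcodes. The part in these values of regulatory T cells without captured Foxp3 was not tested.

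Cell cycle genes were higher with HDCA in 15 of 15 measured cases, 10 by at least 1.5-fold, with a median log2 ratio of 0.78, but this rested on few cells. Mki67, a proliferation marker, had 18 UMIs in WT HFD and 63 in WT HFD+HDCA, and it was detected in 2.30% and 2.13% of the members without Igfbp4. In WT HFD+HDCA 5 members held 39.9% of the UMIs of the list, against 10.2% in WT HFD and 8.39% in the knockout. The median was 0.03 among members with Igfbp4 and 0.07 without the deep and mixed members.

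Respiratory chain subunits encoded in the nucleus were higher in 29 of 33 cases, none by 1.5-fold, with a median log2 ratio of 0.16, which was 0.14 among members with Igfbp4 and 0.08 without the deep and mixed members. Cox7a2, a subunit of complex IV, stood at 174, 234 and 188 CPM. Survival and apoptosis genes were lower in 10 of 16 cases, with a median of -0.16, or -0.26 with Igfbp4 and -0.17 without the deep and mixed members. Cflar (c-FLIP), an inhibitor of death receptor signalling, had a ratio of 0.688 (0.548 to 0.861), and Bcl2l11 (Bim), a pro-apoptotic protein, 0.686 (0.476 to 0.979). Bcl2, the survival protein that interleukin 7 sustains, stood at 273, 275 and 299 CPM and did not differ beyond counting error. TCR signalling genes, GIMAP GTPases and translation factors had medians of 0.07, -0.05 and 0.01, which were 0.0021, 0.02 and 0.01 among members with Igfbp4.

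**Figure D4:**
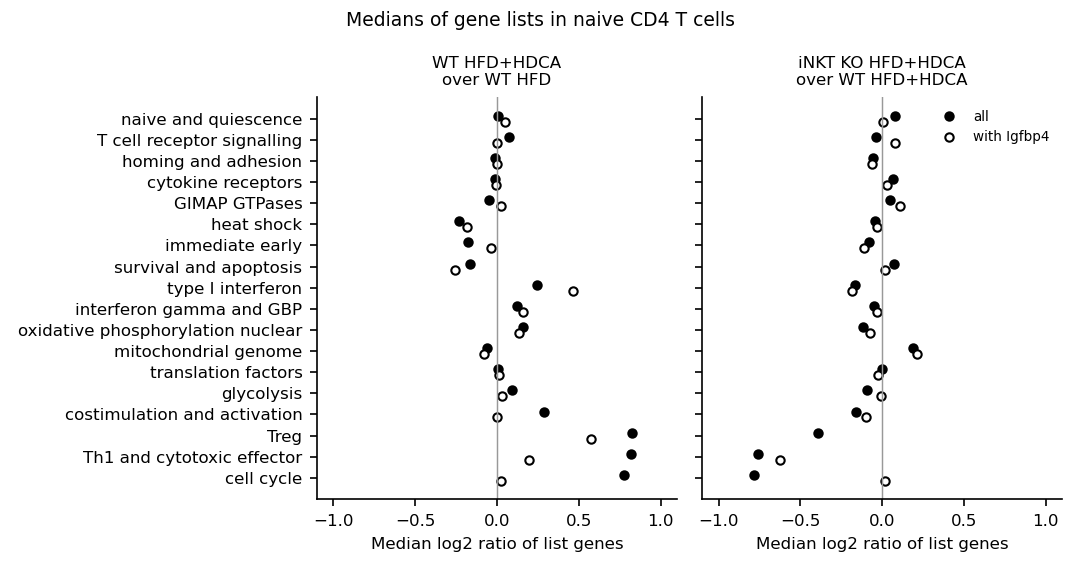
Median log2 ratio of the measured genes of 18 lists, WT HFD+HDCA over WT HFD (left) and iNKT KO HFD+HDCA over WT HFD+HDCA (right), for all members (filled) and for members with an Igfbp4 UMI (open); lists with under 5 measured genes have no symbol. The WT HFD+HDCA library enters both panels, and the Th1, cell cycle and costimulation medians of the left panel (0.82, 0.78 and 0.29) move to 0.19, 0.03 and -0.0025 among members with Igfbp4.

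Single genes with the highest ratios with HDCA were Pdcd1 (21 UMIs in WT HFD and 62 in WT HFD+HDCA, 3.69-fold, 2.22 to 6.37), S100a6, Zdhhc2, Ybx3, Snx10, S100a4, Tnfrsf4, Camkmt, Elp4, Chst12, Gpm6b and Adam19. Ybx3, a cold shock RNA-binding protein, stood at 19.9, 59.4 and 18.8 CPM, so it was the highest in WT HFD+HDCA and lowest in the knockout. Tnfrsf4 (OX40), a costimulatory receptor, stood at 15.04, 35.1 and 28.6 CPM. In naive CD8 cells 5 of these 12 genes had at least 50 UMIs and 3 of the 5 were higher with HDCA there as well.

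The lowest ratios were those of Ell, Rab11fip4, Kcnip1, Epm2aip1, Tsr1, Lime1, Vps33b, Amd1, Dynlt1f, Depdc5, Exoc1 and Fut11. Ell, an elongation factor of RNA polymerase II, stood at 23.3, 8.48 and 20.3 CPM, a ratio of 0.364 (0.185 to 0.672). Tsr1, a ribosome assembly factor, stood at 37.4, 17.6 and 20.3 CPM, and Lime1, an adaptor of TCR signalling, at 18.4, 9.09 and 14.3 CPM. In naive CD8 cells 4 of the 9 of these genes with at least 50 UMIs were lower with HDCA, none by 1.5-fold. The share of all genes that was higher or lower in naive CD8 cells is not given here, so such counts have no background.

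In the knockout under HDCA, compared with WT HFD+HDCA, the members had less RNA of effector and regulatory T cell genes and more mitochondrially encoded RNA. The median of the cell cycle list was lower over all members, but not among members with Igfbp4. Of 6574 genes measured, 55.4% were lower, the median log2 ratio was -0.04, and the interval excluded 1 for 830 (12.6%). At least 1.5-fold higher were 173 (2.63%) and at least 1.5-fold lower 381 (5.8%). Among members with Igfbp4 the counts were 199 higher and 229 lower, so the share of these genes that was higher went from 31.2% to 46.5%, and without the deep and mixed members they were 194 and 244. Because WT HFD+HDCA is the denominator here and the numerator with HDCA, a gene that stood high in that library for any reason is high in one comparison and low in the other.

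Th1 and cytotoxic genes were lower in 10 of 11 cases in the knockout, 9 by at least 1.5-fold, with a median log2 ratio of -0.76, which was -0.62 among members with Igfbp4 and -0.68 without the deep and mixed members. S100a6 had a ratio of 0.451 (0.386 to 0.525) and Itgb1 0.420 (0.347 to 0.506), which was 0.966 (0.519 to 1.79) in members with Igfbp4 and 0.5045 (0.411 to 0.615) in those without. Id2, an inhibitor of helix-loop-helix factors, had 0.591 (0.470 to 0.740). Regulatory T cell genes were lower in 7 of 7 cases, 3 by at least 1.5-fold, with a median of -0.39, or -0.47 without the deep and mixed members (under 5 genes were measured among members with Igfbp4), and Ikzf2 had a ratio of 0.373 (0.250 to 0.545). Cell cycle genes were lower in 14 of 14 cases, with a median of -0.78, which was 0.02 among members with Igfbp4 and -0.08 without the deep and mixed members. Cd44, the hyaluronan receptor of antigen-experienced cells, stood at 44.6, 67.9 and 31.6 CPM, a ratio of 0.466 (0.319 to 0.670). Type I interferon genes were lower in 19 of 27 cases, 3 by at least 1.5-fold, with a median of -0.17, or -0.18 with Igfbp4 and -0.11 without the deep and mixed members.

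Transcripts of the mitochondrial genome were higher in the knockout in 11 of 13 cases, 1 by at least 1.5-fold, with a median log2 ratio of 0.19, while nuclear respiratory chain genes were lower in 29 of 33, with a median of -0.12. The mitochondrial median was 0.21 among members with Igfbp4 and 0.16 without the deep and mixed members, and the nuclear one -0.07 and -0.10. The ATP synthase subunit mt-Atp6 stood at 3045, 2775 and 3533 CPM, a ratio of 1.27 (1.22 to 1.33), and the cytochrome oxidase subunit mt-Co3 at 2050, 2052 and 2552 CPM, a ratio of 1.24 (1.19 to 1.31). The median share of mitochondrial UMIs in naive CD8 cells was also highest in the knockout, at 1.66%, 1.54% and 1.87%. Heat shock genes were lower in 8 of 13 cases, beside 55.4% of all genes measured, with a median of -0.04 (-0.03 with Igfbp4). Dnajb1 nevertheless had a ratio of 1.61 (1.35 to 1.91) and Hspa1b, an inducible HSP70, 3.196 (1.90 to 5.57). Hspa1b was also higher in naive CD8 cells, 2.84-fold (1.81 to 4.58), and in B-like barcodes, 4.58-fold (4.12 to 5.10).

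Il1rapl1, an interleukin 1 receptor family protein, had the highest ratio in the knockout, with 20, 13 and 72 UMIs, 6.89-fold (3.78 to 13.6). It was higher in naive CD8 cells as well, 3.85-fold from 24 to 94 UMIs, and 2.67-fold in B-like barcodes. Behind it came Hspa1b, Mtmr9, Golga2, Trub1, Kcnip1, Rnmt, Map2k7, Dcun1d2, Rtca, Msh6 and Tex2. Of these 12 genes 9 were on the same side in naive CD8 cells, 3 of them by 1.5-fold, and 8 in B-like barcodes, 3 of them by 1.5-fold. The lowest included Tmem254, Ybx3, Septin11, Zfp157, Glrx, Myo1f, Ccdc50, Ecsit, Siva1, Tmem260 and Rnaseh2b. Of the 12 lowest genes 11 were also lower in naive CD8 cells, 3 of them by 1.5-fold. In B-like barcodes 11 were lower, 1 of them by 1.5-fold. The share of all genes on each side in those populations is not given here, so these counts have no background. Tmem254, a transmembrane protein, stood at 46.6, 55.1 and 15.1 CPM, so only the knockout was low, a ratio of 0.273 (0.159 to 0.447), and its ratios in naive CD8 and B-like barcodes were 0.325 and 0.351. Glrx, a glutaredoxin, stood at 28.6, 53.3 and 18.1 CPM.

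Receptors for bile acids and for GLP-1 were scarcely detected in naive CD4 T cells. Gpbar1 (TGR5) and Nr1h4 (FXR), the main bile acid receptors, Ppara, a nuclear receptor for fatty acids, and Glp1r, the GLP-1 receptor, had 0 UMIs in all 3 libraries, which allows levels of up to 1.46, 1.82 and 2.26 CPM at 3 counts each. Vdr had 0, 2 and 3 UMIs. Nr1h2 (LXRβ), an oxysterol receptor, was detected at 81.0, 75.7 and 59.5 CPM. Slc15a2, a peptide transporter, had 6, 36 and 0 UMIs in the members, or 2.91 and 21.8 CPM and an upper limit of 2.26 CPM. The same gene stood at 2.46, 21.5 and 1.24 CPM in B-like barcodes, so its pattern over the libraries was not limited to T cells.

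The receptor sequences used by the members differed sharply between genotypes. The segment that the knockout lacks, TRAJ18, occurred in 5 of the 346 α chains of WT HFD members, 4 of 295 with HDCA and 0 of 225 in the knockout, which allows up to 1.63%, the exact upper limit. Jα segments are numbered toward the constant region, so that TRAJ1 lies nearest to it and the segments with higher numbers lie on the far side of TRAJ18. Segments TRAJ19 to TRAJ49 supplied 66.5% (61.2% to 71.4%) of α chains in WT HFD, 63.1% (57.3% to 68.6%) in WT HFD+HDCA but 3.56% in the knockout, 8 of 225 chains. The ratio was 0.949 (0.778 to 1.16) with HDCA and 0.0564 (0.0240 to 0.113) in the knockout. Segments TRAJ1 to TRAJ17 supplied 20.8%, 26.4% and 90.7%, a ratio of 3.43 (2.63 to 4.51) in the knockout. The 8 chains from TRAJ19 to TRAJ49 in the knockout had a median of 2 UMIs, against 4 for its other α chains.

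For TRAJ19 to TRAJ49 the ratio in the knockout was 0.0580 (0.0209 to 0.130) in members with Igfbp4 and 0.0513 (0.00608 to 0.193) in those without. Naive CD8 cells had a ratio of 0.0486 (0.0219 to 0.0943). Segments from TRAJ50 upward supplied 11.3%, 9.15% and 5.78% of the members' α chains. In naive CD8 cells they supplied 5.91%, 8.71% and 0.685%, and the ratio in the knockout was 0.631 (0.299 to 1.27) in the members and 0.0786 (0.00903 to 0.315) in naive CD8 cells. In Lef1/Ccr7-negative CD4 cells they supplied 13.0%, 9.32% and 27.3%, a ratio of 2.93 (1.35 to 6.72) in the knockout. The differences between these ratios were not tested. In all, the members used 42, 42 and 22 different TRAJ segments, and 20, 21 and 20 different TRBV segments.

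**Figure D5:**
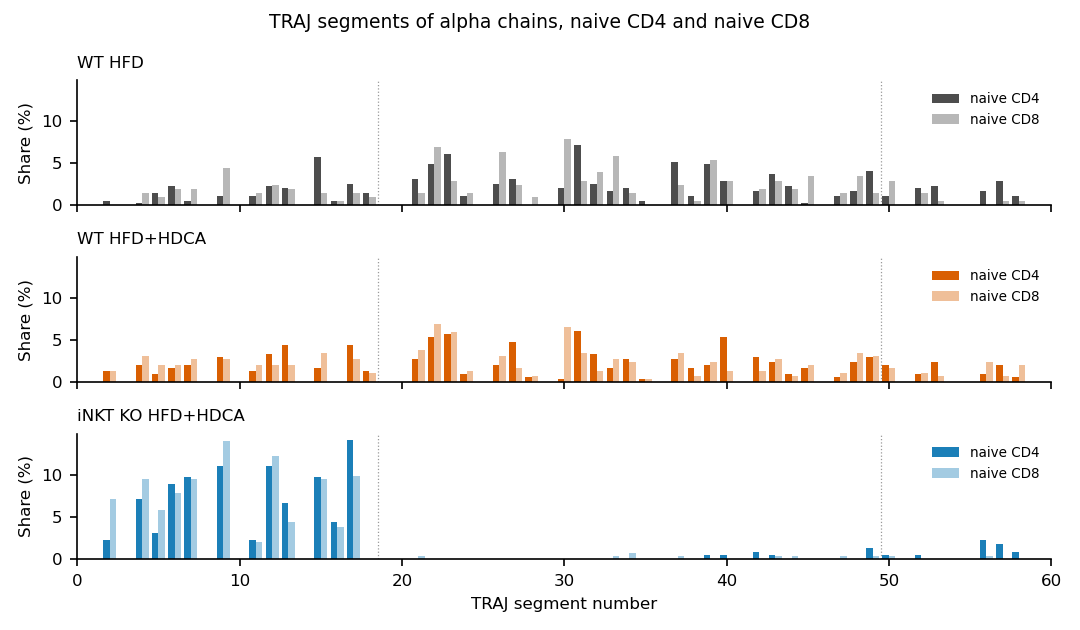
Share of α chains that use each TRAJ segment in members (dark) and naive CD8 T cells (light), 1 panel per library, with the segment number on the horizontal axis; dotted lines separate TRAJ1 to TRAJ18, TRAJ19 to TRAJ49 and TRAJ50 upward. In the 2 WT libraries the segments are used along the whole axis, and in iNKT KO HFD+HDCA 90.7% of the members' α chains come from TRAJ1 to TRAJ17.

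The α chains below show the segments most used in each genotype, with for each the CDR3 (the antigen-contacting loop) of the member contig with the most UMIs. Capitals mark the stretch at the 3′ end carried by at least 90% of the distinct CDR3 sequences of that Jα segment. The rest holds the Vα end and the junction, and can include further bases of the Jα segment. TRAJ31 and TRAJ23 were the most used in WT HFD (7.23% and 6.07% of chains) and in WT HFD+HDCA (6.10% and 5.76%), and neither was found among the knockout's chains. TRAJ17, TRAJ12 and TRAJ9 were the most used in the knockout, with 14.2%, 11.1% and 11.1%, against 2.60%, 2.31% and 1.16% in WT HFD and 4.41%, 3.39% and 3.05% in WT HFD+HDCA.
WT HFD, TRAV14N-3 with TRAJ31: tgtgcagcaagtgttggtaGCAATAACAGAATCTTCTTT
WT HFD, TRAV14N-1 with TRAJ23: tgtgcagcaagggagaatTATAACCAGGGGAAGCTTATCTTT
iNKT KO HFD+HDCA, TRAV14D-3-DV8 with TRAJ17: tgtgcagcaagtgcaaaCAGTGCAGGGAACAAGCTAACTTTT
iNKT KO HFD+HDCA, TRAV7-3 with TRAJ12: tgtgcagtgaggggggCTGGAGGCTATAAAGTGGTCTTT
iNKT KO HFD+HDCA, TRAV12N-2 with TRAJ9: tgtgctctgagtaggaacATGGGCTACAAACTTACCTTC
The capitalised 3′ stretch differs between all 5 of these chains. Mean α chain CDR3 length was 13.7 ± 1.25 (SD over 346 chains), 13.6 ± 1.26 (295 chains) and 13.6 ± 1.002 (225 chains) residues, which differ by less than the spread between chains.

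Among Vα families, TRAV9 supplied 9.83%, 8.47% and 18.7% of the members' α chains, highest in the knockout, and TRAV14 13.6%, 17.3% and 11.1%. Among Vβ segments TRBV13-2 was the most used in WT HFD and in the knockout, with 12.0%, 9.63% and 12.0%. TRBV31 separated the members from naive CD8 cells in each library, with 8.62%, 7.04% and 10.2% of β chains against 1.52%, 2.22% and 2.15%. TRBV2 supplied 7.08%, 8.52% and 7.11%, against 4.06%, 3.70% and 1.43% of naive CD8 chains. Cells with 2 α contigs made up 10.5%, 13.9% and 5.63% of the members, a ratio of 0.405 (0.192 to 0.797) in the knockout, whereas in naive CD8 cells they made up 7.98%, 9.96% and 11.03%.

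Nearly every member had a receptor of its own. A clonotype, the set of CDR3 nucleotide sequences of both chains, was shared with at least 1 more barcode of the library for 3 of 313 members in WT HFD (0.959%, 0.198% to 2.78%), 11 of 259 in WT HFD+HDCA (4.25%, 2.14% to 7.47%) and 6 of 213 in the knockout (2.82%, 1.04% to 6.03%). Among Lef1/Ccr7-negative CD4 cells the shares were 40.6%, 39.4% and 54.1%. The ratio in the members was 4.43 (1.17 to 24.7) with HDCA and 0.663 (0.201 to 1.96) in the knockout. Such sharing depends on the number of barcodes with both chains and no invariant chain, which was 1954, 2846 and 1970. When 1954 of these were drawn from each library, the mean share over 100 draws lay within the interval above in each library. Of the members in shared clonotypes, all 3 of the first library, 10 of 11 of the second and 4 of 6 of the third had no Igfbp4 UMI. Among members with Igfbp4 the numbers were 0 of 226, 1 of 165 and 2 of 151. A count of 0 of 226 allows up to 1.62%, the exact upper limit.

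The largest clonotype with a member, in WT HFD+HDCA, had 6 barcodes, of which 1 was a member and 4 others were CD4 cells outside the rule. In the same library 2 clonotypes of 3 barcodes each, with 2 members and 1 member, had the same α and β chains and differed by a second α chain found in only one of them, so they may be 1 clone counted apart. Their chains are printed because they are the receptor found in the most members of any library. Capitals are as above, with the Jβ segment in place of the Jα segment for the β chain.
TRAV12-1 with TRAJ40, in both: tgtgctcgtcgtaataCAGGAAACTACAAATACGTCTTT
TRBV10 with TRBJ2-5, in both: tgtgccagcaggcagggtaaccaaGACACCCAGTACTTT
TRAV14N-2 with TRAJ38, in one: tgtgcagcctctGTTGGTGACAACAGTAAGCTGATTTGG
None of the 3 members of these clonotypes had an Igfbp4 UMI.

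Members of different libraries shared few chains. WT HFD and WT HFD+HDCA had 3 α CDR3 nucleotide sequences in common out of 345 and 291, WT HFD and the knockout 1 of 345 and 224, and WT HFD+HDCA and the knockout 2 of 291 and 224. One α sequence, from TRAV14N segments and TRAJ13, occurred in a member of each library. The only β sequence found in members of 2 libraries, WT HFD+HDCA and the knockout, was assigned to TRBV19 in one and TRBV5 in the other.
Found in all 3 libraries, TRAJ13: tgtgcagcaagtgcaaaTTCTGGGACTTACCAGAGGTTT
Found in 2 libraries, TRBJ2-5: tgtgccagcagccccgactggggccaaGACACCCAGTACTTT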

How the data were processed

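Droplet RNA libraries and TCR libraries of CD45+ liver cells were analysed, 1 of each for each of 3 groups. The authors deposited filtered matrices of raw UMI counts per gene and barcode made with Cell Ranger 8.0.1, per the file headers, and filtered contig tables with UMI and read counts per chain. The submitters' processing notes name both mm10 and GRCm39, so no coordinates are given.

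Barcodes were joined between RNA and TCR files, and members were summed per library. Counts were 44332213, 70776925 and 46600746 UMIs per library. Levels carry exact Poisson, shares exact Clopper-Pearson and ratios exact conditional intervals at 95%, computed with Python 3.11.15, numpy 2.4.6, scipy 1.17.1 and pandas 2.3.3, and drawn with matplotlib 3.10.9. The code was tested on simulated data. Genes needed 50 UMIs over both libraries and a fold of 1.5 to be counted. Named genes are the 12 highest and 12 lowest ratios, leaving out receptor segments, unnamed gene models, mitochondrial, ribosomal protein and sex-linked genes, the genes of the rule, markers of other cell types, and genes of which 1 cell held over 20% of the UMIs. Fixed markers and the 10 highest and lowest against other populations were named as well. Some genes that this rule names are not reported here. Doublets were not removed. Scrublet in scanpy 1.11.5 called 285, 514 and 313 barcodes, of which 1, 1 and 0 were members, and served as an alternative.

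The members and the 36 gene lists were chosen with earlier results of these data known, and the division by Igfbp4 and the limit on deep and mixed members after values were seen.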

Additional observations from a re-analysis of the deposited data

Results flagged for a closer look

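S100a6 stood 3.42 times as high with HDCA in naive CD4 T cells (2.93 to 3.99, 859 UMIs over both libraries) and 0.660 times as high in naive CD8 T cells (0.452 to 0.961, 119 UMIs), so it drew attention because the directions were opposite. Adam19 had a ratio of 0.519 (0.146 to 1.53) with HDCA in members with Igfbp4 and 3.72 (1.60 to 10.0) in members without. Kcnip1 had a ratio of 0.242 (0.0918 to 0.544) in members with Igfbp4 and 1.59 (0.539 to 5.24) in members without. None of these differences was itself tested, each side is 1 library against 1, and the minimum of 15 UMIs on each side was set after values were seen.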

How the results depend on the processing

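No paired analysis was possible because each group had 1 library, so that no replicate could be left out either, and nothing here shows how much libraries of a group differ. With every barcode thinned to 2000 UMIs before the rule, members were 3.01%, 1.56% and 1.996% of barcodes in WT HFD, in WT with HDCA and in the knockout. Over paired barcodes they were 16.0%, 9.10% and 10.8%, and with an Igfbp4 UMI required 3.49%, 1.61% and 2.11%. WT HFD was the highest in each case.

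Genes past 1.5-fold (343 higher and 190 lower with HDCA, 173 and 381 in the knockout) numbered 188, 122, 105 and 169 after thinning, 132, 51, 59 and 155 at 100 UMIs, 778, 490, 486 and 914 at 20 UMIs, and 64, 20, 19 and 86 at 2-fold. The number lower in the knockout was 229 among members with Igfbp4 and 244 without the deep and mixed members. Of the genes past 1.5-fold in the knockout, 31.2% were higher, against 39.1% after scaling to the median ratio. With HDCA the share was 64.4% and 56.0%. Fewer cells or other genes enter several of these counts.

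The direction turned in 7 cases among named genes at least 1.5-fold apart and lists whose median had an interval, from the order of its genes, that excludes 0. The other sign changes, 26 for genes and 39 for list medians over all settings, started from values short of these limits. The B cell list median with HDCA was -1.71 with quality limits, no called doublets and 1 β chain. After thinning, the log2 ratio of Lamp2 in the knockout was 0.44. Among members with Igfbp4, Adam19 and Cd44 were at -0.95 and -0.0456 with HDCA, and the cell cycle list at 0.0205 in the knockout. Without the deep and mixed members Ly6c2 was at -0.73 with HDCA and 1.78 in the knockout. The cause was not tested. Slc15a2, at 0 UMIs in the knockout, has no finite ratio and was left out. With contigs of at least 3 UMIs, TRAJ19 to TRAJ49 supplied 1.15% of the knockout's chains. With 2 UMIs of Lef1 and Ccr7 required, 0.971% of the knockout's members were in shared clonotypes, and with Igfbp4 required 0% in WT HFD and 0.606% in WT HFD+HDCA. The settings that require Igfbp4 or leave out deep and mixed members were chosen after seeing the data.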
